A study of Mus musculus with 7 samples.

Results

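Histones are the proteins around which DNA is wound in the nucleus. The expression table of mouse regulatory T (Treg) cells held 56 histone genes among 15815 genes, taken as the symbols that begin with Hist1h to Hist4h, H1f, H2af or H3f. Of these, 46 were clustered genes (symbols beginning with Hist) and 10 were variant genes (H1f0, 6 H2af genes and 3 H3f3 genes). The values came from 3 libraries of Hpgd-deficient Treg cells (KO 1 to 3) and 4 libraries of WT Treg cells (WT 1 to 4). Hpgd encodes the enzyme that inactivates prostaglandins. The labels give all 7 libraries the same line, Hpgd fl with Foxp3-YFP-Cre and deletion of Hpgd in Treg cells, on strain C57BL/6JRcc, so that the titles alone separate KO from WT. Foxp3, the Treg transcription factor gene, therefore drives both the Cre and the YFP mark. All hosts were Rag-/- mice, which have no T or B cells of their own, and all had also received WT naive T cells and further WT Treg cells. After 8 weeks the YFP+ cells were isolated from the mesenteric lymph nodes. No label ties a library to its own host, and p-values here cover the spread among these libraries, which may be technical in part.

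Clustered histone genes supply the histones that package newly copied DNA, and most of their mRNA is made in S phase of the cell cycle. These mRNAs usually end just after a stem-loop in place of a poly(A) tail. Variant histone genes are expressed throughout the cell cycle and in resting cells as ordinary spliced or polyadenylated mRNAs, and their products replace the bulk histones at genes, at DNA breaks or in differentiated cells. The libraries were made with SmartSeq2 from 10 ng of total RNA, a method that starts cDNA at poly(A) tails. A transcript without a tail is therefore poorly represented, so the level of a clustered gene is that of its transcripts that entered the cDNA, and fewer cells in S phase and less histone mRNA per cell cannot be told apart in such bulk samples.

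The libraries held between 4135733 (KO 3) and 10622507 reads (WT 4) in the table. Levels are normalized counts, the deposited value less its offset of 1. Hpgd itself was at 0.759, 2.42 and 5.52 in KO 1 to 3, against 18.7, 9.96, 10.2 and 13.4 in WT 1 to 4, or 7 reads in all against 56. The KO and WT libraries did not overlap (exact two-sided permutation p = 0.0286, the smallest that 35 splits allow), but Hpgd did not pass over all listed genes (limma adjusted p = 1.00). Foxp3 was read in every library, with 124 ± 17.5 (SD, n = 3) in KO and 107 ± 42.7 (SD, n = 4) in WT. WT 2 and KO 3 lay at opposite ends of the first principal component, which held 35.1% of the variance. The 7 Treg markers analysed summed to between 31932 and 34399 in KO and between 29865 and 35244 in WT. Markers of other cell types overlapped between the genotypes except the erythroid list, where the 5 genes analysed of 7 summed to between 77.4 and 239 in KO and between 642 and 2809 in WT.

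The stem-loop was searched for in the GENCODE M21 transcripts of the members (mm10), because it marks clustered histone mRNA and is independent of the measured levels. The motif searched, on the transcript strand, was GG, then any 2 bases, CTTTT, any base, AG, any 2 bases and CC. It was in a protein-coding transcript of 36 of 46 clustered genes, and of 0.329% of all 21901 protein-coding genes. Of these 36 genes, 16 had a transcript that ended 3 to 57 bases after the stem-loop, and 20 had a transcript annotated to run on for 151 to 4884 bases. Among the variant genes H2afx alone held the motif, followed by 822 more bases. The remaining 10 clustered genes had no match in their annotated transcripts. The 16 bases of the stem-loop are in capitals below, with up to 6 transcript bases before them and up to 8 after them, for the most abundant members with a stem-loop, for 4 H4 genes and for H2afx.

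Hist1h2ap: aaaaaaGGCTCTTTTCAGAGCCatc
Hist3h2a: accaaaGGCTCTTTTCAGAGCCacccacaa
Hist1h1c: ccaaaaGGCTCTTTTCAGAGCCaccactcc
Hist2h2aa1: taaaaaGGCTCTTTTCAGAGCCacccactg
Hist1h4n: actaaaGGCCCTTTTCAGGGCCatccaatt
Hist1h4c: acaaaaGGCCCTTTTCAGGGCCacccacaa
Hist1h4i: cttaaaGGCCCTTTTTAGGGCCaccacaaa
Hist1h4b: acaaaaGGTCCTTTTCAGGACCactcactg
H2afx: cacaaaGGCCCTTTTAAGGGCCaccacctc

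The form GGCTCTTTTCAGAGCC was shared by 23 members of the H1, H2A, H2B and H3 families and was in none of the 8 H4 genes with a stem-loop. In the H4 genes it was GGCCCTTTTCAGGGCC in 5, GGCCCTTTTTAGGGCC in 2 and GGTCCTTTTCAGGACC in Hist1h4b. The stem of H2afx had the same letters as that of most H4 genes, although its protein is an H2A. In all of these forms the first 6 and the last 6 bases can pair with each other. Most clustered genes also had short, unspliced transcripts, with a single exon in 42 of 46 genes against 3 of 10 variant genes. In the RefSeq promoters (GRCm38.p6), the 250 bases before the start held the motif CCAAT on either strand in 32 of 40 clustered genes that could be matched (80.0%), in 5 of 9 variant genes (55.6%) and in 34.5% of 27025 genes in all. The motif TATAAA, also on either strand, was in 45.0% of the clustered, 11.1% of the variant and 13.0% of all promoters. Some neighbouring clustered genes on opposite strands, such as Hist1h2ae and Hist1h2bg, have overlapping promoters. The same bases can then count for both genes, so the clustered promoters are not all separate.

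Clustered genes lie close together on the genome. The 34 Hist1 genes span mm10 chromosome 13 from 21716422 to 23762386, the 9 Hist2 genes chromosome 3 from 96220361 to 96270132, the 2 Hist3 genes chromosome 11 from 58948920 to 58956830, and Hist4h4 lies on chromosome 6 from 136801553 to 136804415. Many clustered genes also share sequence with other genes, by median most in the H2A family and least in the H1 family. The median clustered gene shared 57.4% of the 31-base stretches of its transcripts with another gene, against 12.4% for the median variant gene, and 6 clustered genes shared 100%. The reads of single clustered genes are therefore uncertain. The main cases among the abundant clustered members are Hist1h2ap, with 93.4% shared, Hist1h4n, with 87.5%, and the pair Hist2h2aa1 and Hist2h2aa2, with 100% each. Among the variant genes H2afz, the most abundant of them, shared 73.9% and H3f3c 91.3%, so their reads are uncertain as well. Exons of 18 clustered and 6 variant genes also overlapped those of another annotated gene. Among them, Hist1h1e overlapped Hist1h2be and Hist3h2a overlapped the protein-coding gene Trim17, in both cases on the same strand. SmartSeq2 does not mark strand, so reads from overlapping exons cannot be told apart.

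In these sorted Treg cells the variant genes held far more of the counts than the clustered genes. Variant genes summed to 24333, 24070 and 33186 normalized counts in KO 1 to 3 and to 25229, 31900, 24183 and 29319 in WT 1 to 4. The 46 clustered genes summed to 839, 900.0 and 875 in KO 1 to 3 and to 867, 1390, 1076 and 1053 in WT 1 to 4. The variant sum was thus between 22.5 (WT 3) and 37.9 times (KO 3) the clustered sum in every library. Per kilobase of the longest protein-coding transcript the ratio was smaller, between 10.8 (WT 2) and 20.95 (KO 3). In each library the variant genes took 0.334% to 0.436% of all normalized counts and the clustered genes 0.0115% to 0.0174%.

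**Figure D1:**
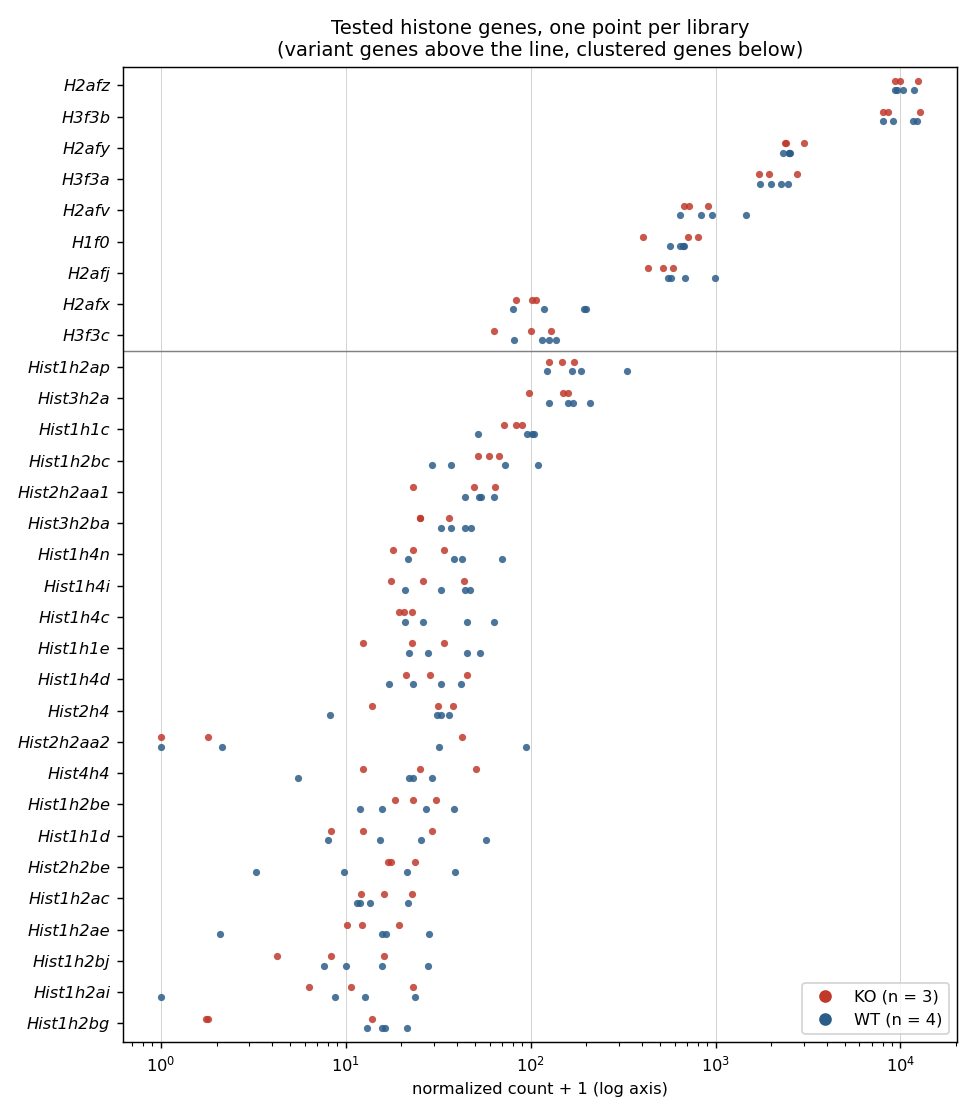
Normalized count plus 1 on a log axis for the 31 tested histone genes, 9 variant genes above the line and 22 clustered genes below it, with one point per library (KO offset above WT). H2afz lies between 9344 and 12499 and H3f3b between 8006 and 12679 in all libraries, most clustered genes lie below 100, and the KO and WT points of all 31 genes overlap.

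Both classes were led by few genes. H2afz and H3f3b held 74.4% of the variant sum, and Hist1h2ap, Hist3h2a and Hist1h1c held 41.5% of the clustered sum. Per kilobase H2afz stood at 9730 and H3f3b at 3993, followed by H2afy at 1232, H3f3a at 747 and H2afv at 542. Hist1h2ap, at 370 per kilobase, was the only clustered gene above H2afj (338), H1f0 (310), H3f3c (259) and H2afx (90.6), and Hist2h2aa1 (83.9), Hist1h4n (80.0) and Hist3h2a (70.7) came next. A mean normalized count of at least 10, the condition for testing, was met by 9 of 10 variant and 22 of 46 clustered genes. In every library at least 1 read was found for 9 variant and 25 clustered genes.

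Within the H3 family the contrast was widest. The 7 clustered H3 genes were all below the limit for testing and summed to 17.5, 17.0 and 29.4 normalized counts in KO 1 to 3 and to 15.4, 9.96, 21.5 and 14.1 in WT 1 to 4. H3f3a and H3f3b, which encode the same replacement histone, summed to 10220, 10037 and 15439 in KO and to 10806, 14077, 10261 and 14295 in WT. The clustered H2A genes had the highest sum of the clustered families in every library, with 387 to 441 in KO and 379 to 778 in WT. The H2B genes summed to 146 to 169 in KO and 163 to 261 in WT, and the H4 genes to 159 to 180 in KO and 157 to 264 in WT. The search rule holds no variant gene of the H2B or H4 families. The 4 linker histone H1 genes of the clusters summed to 109 to 129 in KO and 86.9 to 215 in WT, below the single gene H1f0 in every library.

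The clustered genes were also set apart by the annotated end of their transcripts. The 20 genes annotated past the stem-loop held 54.7% of the clustered sum, the 16 genes that end at it 33.9%, and the 10 without a match 11.4%. Of the genes annotated past the stem-loop 14 of 20 could be tested, against 5 of 16 of those that end at it. Per kilobase the median level was 12.3 for genes annotated past the stem-loop, 9.22 for those that end at it and 7.67 for the genes without a match. The sums per kilobase had the other order in every library. They were 334 to 382 in KO and 359 to 503 in WT for the genes annotated past the stem-loop, and 457 to 645 in KO and 611 to 1202 in WT for those that end at it, among them Hist1h2ap. The genes with the longer annotated transcripts also shared less of their sequence, with a median of 30.6% against 71.3% for those that end at the stem-loop.

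**Figure D2:**
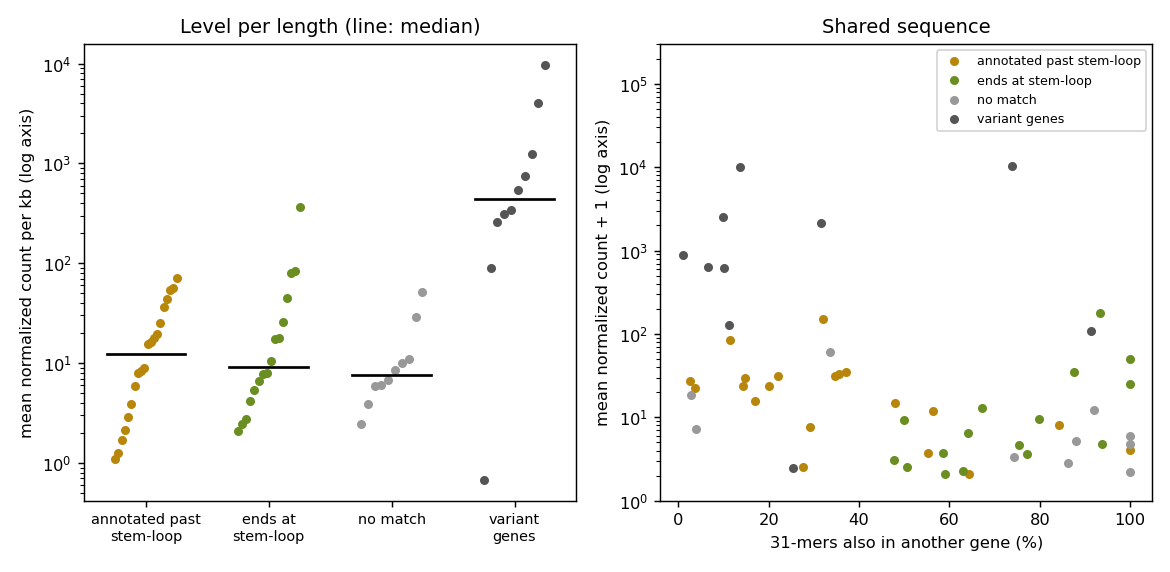
Left, mean normalized count per kilobase of transcript (log axis) for each of the 56 genes, the clustered genes split by their annotated stem-loop, with lines at the medians. Right, mean normalized count plus 1 (log axis) against the percentage of 31-base stretches also present in another gene. The 3 clustered groups have medians of 12.3, 9.22 and 7.67 per kilobase, against 440.2 for the variant genes, and the genes that end at the stem-loop lie toward the right of the second panel.

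The main comparison asked whether histone transcripts differ between Hpgd-deficient and WT Treg cells. No histone gene passed the test. At an adjusted p of 0.05 in limma 0 of 31 tested histone genes passed, as did 0 of all 11787 tested genes (0% called). At an unadjusted p under 0.05 there was 1 histone gene, Hist1h2bg, lower in KO, against 211 of all tested genes (1.79%), of which 92 were higher (0.781%) and 119 lower (1.01%). The KO and WT libraries did not overlap for 0 of the 31 tested histone genes, against 1.71% of all tested genes with KO entirely higher and 1.93% with KO entirely lower. With voom on recovered reads the counts were also 0 adjusted, and 1 and 193 unadjusted. The smallest limma adjusted p of a histone gene was 1.00. The estimates were lower in KO for 20 and higher for 11 histone genes, with a median log2 fold change of -0.27, against 0.01 over all tested genes. For clustered genes the split was 13 lower and 9 higher with a median of -0.32, and for variant genes 7 lower and 2 higher with a median of -0.08. The clustered median was -0.14 without WT 2, and -0.03 both without KO 3 and without WT 2 and KO 3 together, and the variant median was -0.25 without KO 3 and 0.04 without KO 2. Above and below the estimate, the 95% interval extended by 1.32 log2 units for the median clustered gene and by 0.53 for the median variant gene. Around the clustered median of -0.32, an interval of that width holds a 2-fold decrease in KO.

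**Figure D3:**
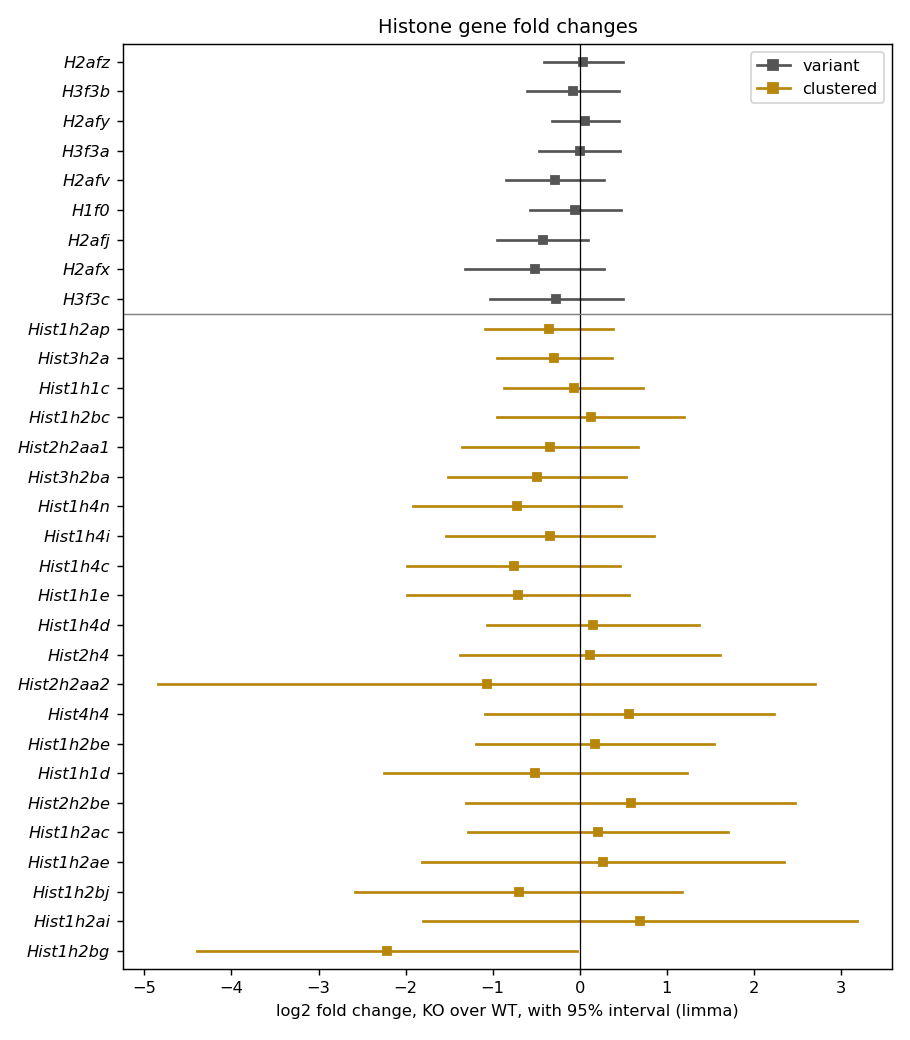
Log2 fold change, KO over WT, of the 31 tested histone genes with its 95% interval from limma, variant genes above the line and clustered genes below it. The interval of 30 genes spans 0, that of Hist1h2bg ends at -0.04, and none passes after adjustment over all genes.

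The estimates of the 4 most abundant variant genes lay between -0.08 and 0.06. H2afz encodes the H2A form found around transcription start sites, and was at 9349, 9923 and 12499 in KO 1 to 3, against 9344, 11887, 9538 and 10274 in WT 1 to 4 (log2 fold change 0.04, SE 0.21, 95% interval -0.42 to 0.50). The groups overlapped, with the highest value in KO 3 and the lowest in WT 1. H3f3b was at 8511, 8092 and 12679 in KO, against 9065, 11619, 8006 and 12302 in WT (-0.08, SE 0.24). H3f3a was at 1709, 1945 and 2760 in KO and 1740, 2458, 2255 and 1993 in WT, with a log2 fold change of -0.00 (SE 0.21). For both genes the highest library was KO 3 and the KO and WT ranges overlapped. H2afy encodes macroH2A, an H2A with a large extra domain, and was at 2391, 2369 and 3019 in KO and 2539, 2496, 2322 and 2503 in WT (0.06, SE 0.18; 95% interval -0.32 to 0.45). Its close relative H2afy2 was nearly silent, with 3 reads in KO, all in KO 2, and 7 reads in WT 1 and WT 3.

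H1f0, the linker histone gene known for accumulating in cells that have stopped dividing, was at 707, 406 and 807 in KO and 567, 673, 665 and 642 in WT (log2 fold change -0.05, SE 0.24). KO held both its lowest and its highest library. Among the 9 tested variant genes the estimates farthest from 0 were those of H2afj and H2afx, both below 0, and neither passed. H2afj was at 584, 428 and 519 in KO, against 686, 998, 549.7 and 573 in WT (-0.43, SE 0.24, 95% interval -0.95 to 0.10), with an estimate of -0.24 without WT 2. H2afx, whose product is phosphorylated at DNA breaks, was at 106, 100.2 and 82.7 in KO, against 199, 193, 118 and 79.4 in WT (-0.52, SE 0.37, 95% interval -1.31 to 0.28). In H2afx the lowest library of all was WT 4, and WT 1 and WT 2 lay well above the rest. Its estimate was -0.34 without WT 1 and -0.25 without WT 2 and KO 3. H2afv, the second H2A.Z gene, was at 914, 675 and 721 in KO and 950.4, 1453, 644 and 838 in WT (-0.28, SE 0.26). WT 2 was its highest library, and the estimate was -0.07 without WT 2 and -0.03 without both WT 2 and KO 3. H3f3c, which GENCODE lists as a processed pseudogene and which shared 91.3% of its sequence stretches with other genes, was at 62.2, 128 and 99.3 in KO and 136, 124, 80.3 and 115 in WT (-0.27, SE 0.36), with an estimate of 0.02 without KO 1.

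Among the abundant clustered genes the core histone gene Hist1h2ap was at 147, 171 and 125 in KO, against 166, 330.4, 122 and 186 in WT (log2 fold change -0.36, SE 0.34). WT 2 held its highest value, and the estimate was -0.08 without WT 2 and 0.03 without both WT 2 and KO 3. Hist3h2a, another H2A gene, was at 97.1, 149 and 158 in KO and 157, 208, 124 and 168 in WT (-0.29, SE 0.30). Hist1h1c, a linker histone gene, was at 82.7, 70.3 and 88.3 in KO and 50.6, 103, 95.0025 and 101 in WT (-0.07, SE 0.37). The H2B gene Hist1h2bc was at 50.8, 66.2 and 58.8 in KO and at 36.3, 109, 28.3 and 71.7 in WT (0.13, SE 0.50). All 4 genes overlapped between the groups. The estimate of Hist3h2a was -0.07 without KO 1, and those of Hist1h1c and Hist1h2bc changed sign when single libraries were left out.

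The H2B gene Hist3h2ba came nearest to separating among the 10 most abundant clustered genes. It was at 24.3, 24.2 and 34.9 in KO, against 31.9, 36.2, 43.0 and 46.4 in WT (log2 fold change -0.49, SE 0.47; exact two-sided permutation p = 0.114), with KO 3 above WT 1. The H4 genes Hist1h4n and Hist1h4c had estimates of -0.72 (SE 0.55) and -0.76 (SE 0.57). Hist1h4n was at 22.0, 17.0 and 33.1 in KO, against 37.4, 20.8, 69.0 and 41.5 in WT. Hist1h4c was at 19.7, 21.8 and 18.4 in KO, against 25.3, 19.9, 62.2 and 44.3 in WT. WT 3 was the highest library of both genes and WT 2 the lowest WT library of both. Without WT 3 the estimates were -0.45 for Hist1h4n and -0.48 for Hist1h4c, and without WT 2 and KO 3 that of Hist1h4n was -1.25. The H4 gene Hist1h4i was at 42.5, 25.04 and 16.5 in KO and 42.9, 19.9, 31.7 and 45.7 in WT (-0.34, SE 0.55). The linker histone gene Hist1h1e was at 11.4, 21.8 and 33.1 in KO and 20.9, 44.4, 52.0 and 26.7 in WT (-0.71, SE 0.59). The KO and WT ranges of Hist1h4i and Hist1h1e overlapped, and the estimates were -0.03 for Hist1h4i without KO 3 and -0.32 for Hist1h1e without KO 1.

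Hist2h2aa1 and Hist2h2aa2, 2 H2A genes, had transcripts whose 31-base stretches all occur in other genes as well. Hist2h2aa2 was at 41.7, 0.808 and 0 in KO and 0, 93.2, 1.13 and 30.9 in WT, while Hist2h2aa1 was at 48.6, 63.0 and 22.1 in KO and 62.7, 51.6, 53.2 and 42.9 in WT. Hist2h2aa2 was thus well covered in KO 1, WT 2 and WT 4 and at or near 0 in the other libraries. Their sum was 90.3, 63.8 and 22.1 in KO and 62.7, 145, 54.3 and 73.8 in WT, and it overlapped between the groups. The log2 fold changes were -0.34 (SE 0.47) for Hist2h2aa1 and -1.07 (SE 1.74) for Hist2h2aa2.

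The lower-count genes gave the largest single differences. Hist1h2bg, an H2B gene, was at 0.759, 0.808 and 12.9 in KO, against 12.1, 15.4, 20.4 and 14.8 in WT (log2 fold change -2.21, SE 1.01; limma adjusted p = 1.00). It rested on 1, 1 and 7 reads in KO and 11, 17, 18 and 21 reads in WT, and KO 3 lay within the WT range. The estimate was -1.71 without KO 1, -1.73 without KO 2 and -3.20 without KO 3. Of all 56 histone genes 1, Hist1h2bn, had groups that did not overlap, against 1.76% of all listed genes with KO entirely lower and 1.91% with KO entirely higher. This H2B gene had 4, 5, 13 and 8 reads in WT and 0 in each KO library, a pattern found in 8 of 15815 genes (0.0506%; the opposite pattern was found in 0.0316%), and was chosen after its values were seen. Its WT mean was 6.44 times a floor of 3 reads over the KO group. That floor covers counting error in KO only, and the WT mean was taken as exact. Hist1h2bn lay below the limit for testing, and 88.0% of its sequence stretches were shared with other genes. In the other direction Hist2h3c1, an H3 gene with 100% shared sequence and also chosen after its values were seen, was at 0, 1.62 and 20.2 in KO and listed at 0 in all WT libraries. Hist1h2ao, an H2A gene with 93.8% shared sequence chosen in the same way, was at 5.31, 5.66 and 9.19 in KO and 0, 0, 6.79 and 0 in WT. In the fit to all listed genes 3 of 56 histone genes had an unadjusted limma p under 0.05, against 346 of 15815 genes. Among them were Hist1h2bn, lower in KO, and Hist1h2ao, higher in KO.

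The other clustered genes that the naming rule took had wider intervals than the 10 most abundant ones. Hist4h4, an H4 gene, had a log2 fold change of 0.57 (SE 0.77), with its highest library in KO 3 and its lowest in WT 2, and the estimate was 0.06 without KO 3, 0.03 without WT 2 and -0.48 without both. Hist2h2be, an H2B gene, was at 15.9, 22.6 and 16.5 in KO and 8.80, 38.0, 2.26 and 20.4 in WT (0.58, SE 0.87). Its KO libraries lay close together within a wide WT range, and its estimate was 1.12 without WT 2 and -0.07 without WT 3. Hist1h2bj and Hist1h1d had estimates of -0.70 (SE 0.87) and -0.51 (SE 0.80). Hist1h2bj was at -0.22 without KO 2, and Hist1h1d at -0.11 without KO 3, -0.02 without WT 3 and -0.01 without WT 2 and KO 3, all as log2 estimates. The remaining 6 tested clustered genes, Hist1h4d, Hist2h4, Hist1h2be, Hist1h2ac, Hist1h2ae and Hist1h2ai, had estimates between 0.12 (Hist2h4) and 0.70 (Hist1h2ai). The clustered genes below the limit for testing had means between 1.11 (Hist1h3a) and 8.55 (Hist1h2ag). Clustered genes with a mean between 10 and 50 had a median within-group SD of 0.77 log2 units, against 0.93 for all 2539 genes at that level, and the tested variant genes had a median of 0.34.

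Because clustered histone mRNA is made in S phase, the replication genes of the same libraries were set beside it. The log2 sum of clustered genes was lower in KO by a mean difference of -0.31, with 871 ± 30.9 (SD, n = 3) in KO and 1096 ± 217 (SD, n = 4) in WT, and WT 1 lay within the KO range. The variant sum differed by -0.03 on the log2 scale, with 27196 ± 5189 in KO and 27658 ± 3593 in WT. The log2 ratio of the clustered to the variant sum, which no library scaling can alter, was -4.86, -4.74 and -5.24 in KO and -4.86, -4.52, -4.49 and -4.80 in WT. Its difference of -0.28 was -0.13 without KO 3 and -0.08 without both WT 2 and KO 3, and that of the clustered sum was -0.19 without WT 2. The KO and WT libraries overlapped in each of these 3 measures.

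**Figure D4:**
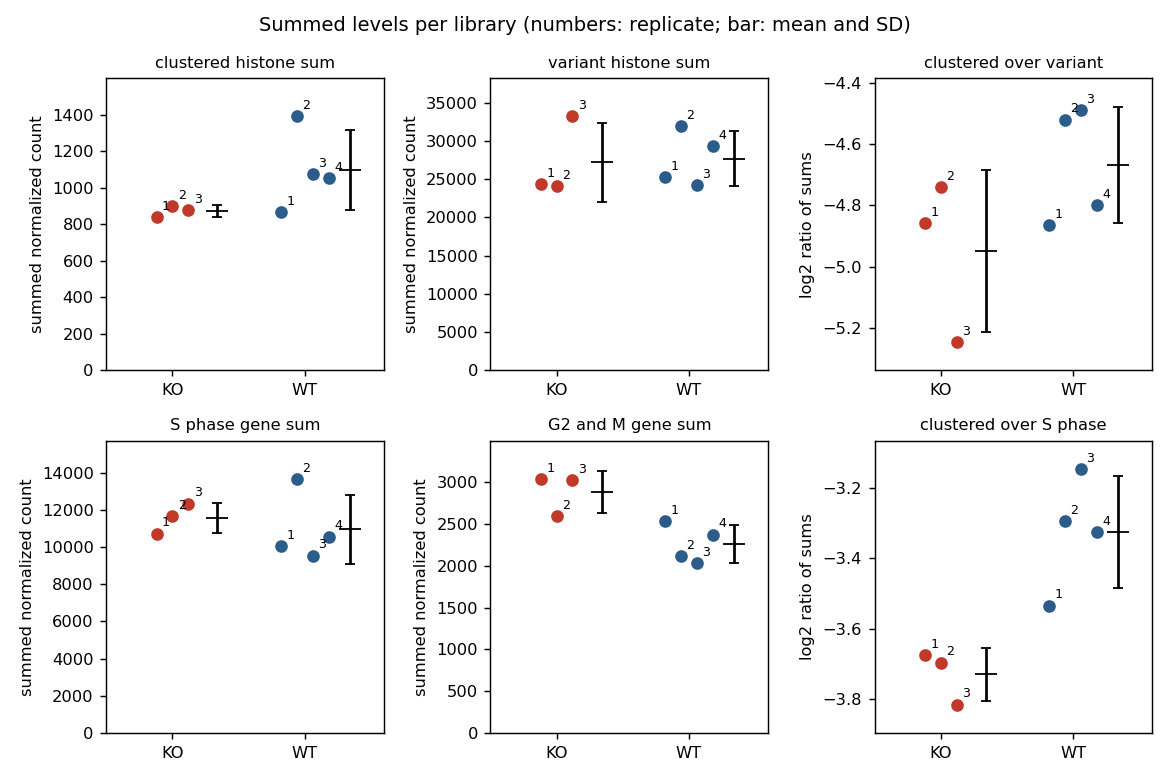
Summed normalized counts of the clustered histone genes, the variant histone genes, 40 S phase genes and 18 genes of G2 and M phase, and log2 ratios of sums, with one numbered point per library (KO left, WT right) and the mean with SD as a bar. The clustered sum lies between 839 and 900.0 in KO and between 867 and 1390 in WT. The ratio of clustered to S phase genes separates the genotypes, and so does the G2 and M sum, though not without Mki67 and Top2a.

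The median estimate of the cell cycle genes was above 0, unlike that of the clustered histone genes. The 40 S phase genes summed to 10720, 11670 and 12328 in KO and 10047, 13641, 9538 and 10555 in WT, with 26 estimates higher and 14 lower in KO and a median log2 fold change of 0.13. The 18 genes of G2 and M phase summed to 3039, 2596 and 3029 in KO and 2533, 2120, 2034 and 2375 in WT, so that every KO library lay above every WT library. Of these 18 genes 13 had higher and 5 lower estimates, with a median of 0.36, and 0 of either list passed in limma. In 2 of the 18 genes, Mki67 and Top2a, KO lay entirely above WT, against 1.71% of all tested genes. Both are abundant members of this sum. With their levels, given below, taken from the sums, the KO and WT libraries overlapped for the other genes of the list. KO 2 then lay below WT 1 and WT 2, so the separation depended on Mki67 and Top2a. At an unadjusted p under 0.05 there was 1 S phase gene, Prim1, which encodes a DNA primase subunit (-1.63, SE 0.57), and 0 G2 and M genes, against 1.79% of all tested genes. The log2 ratio of clustered histone to S phase genes was -3.68, -3.70 and -3.82 in KO, against -3.53, -3.30, -3.15 and -3.33 in WT. All KO libraries lay below all WT libraries, with a mean difference of -0.40, and of -0.35 without WT 2 and KO 3. This ratio was formed with the levels already known and carries no test. The erythroid genes given above separated the genotypes in the same direction, and the part of these genes and of the G2 and M genes in the ratio was not tested.

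Per kilobase of transcript the clustered sum was 1051, 1001 and 983 in KO, against 1064, 1863, 1319 and 1302 in WT, so the groups did not overlap but KO 1 and WT 1 nearly met. By family the clustered H2B genes (134 to 173 in KO, 189 to 298 in WT) and H4 genes (170 to 217 in KO, 237 to 352 in WT) did not overlap per kilobase. The H1, H2A and H3 families did overlap. Without the division by length the H2B and H4 sums overlapped as well, as given above. Division by length gives more weight to short transcripts, among them Hist1h2bn (381 bases, 88.0% shared sequence) and Hist1h4n (430 bases, 87.5%). The separations per kilobase were picked out of several sums with the levels known. They carry no test and have no share over all genes beside them.

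Among single cell cycle genes, Mki67, the proliferation marker gene, was at 833, 687 and 725 in KO, against 601, 124, 581 and 656 in WT (log2 fold change 0.86, SE 0.46; exact two-sided permutation p = 0.200). The estimate was 0.29 without WT 2 and 0.31 without both WT 2 and KO 3. WT 2 was far below the others although its clustered histone sum was the highest of all. Top2a, which encodes a topoisomerase of dividing cells, was at 725, 615 and 577 in KO and 570, 464, 383 and 491 in WT (0.43, SE 0.21; exact two-sided permutation p = 0.0571). The groups of both genes did not overlap, and neither passed in limma (adjusted p = 1.00). The replication clamp gene Pcna was at 979, 1205 and 1410 in KO and 1130, 1202, 1012 and 1037 in WT (0.12, SE 0.19). The helicase gene Mcm5 was at 326, 344 and 193 in KO and 352, 615, 249 and 290 in WT (-0.34, SE 0.33), with WT 2 highest. Its estimate was -0.08 without WT 2, -0.08 without KO 3 and 0.19 without both.

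Of 40 tested genes that make, process or deposit histones, 0 passed in limma, as did 0 of all tested genes. An unadjusted p under 0.05 was found for 0 of the 40, against 1.79% of all tested genes, a share at which so short a list may hold none. Their estimates were above 0 for 27 genes and below 0 for 13 (median 0.08 on the log2 scale). Slbp, which encodes the protein that binds the stem-loop, was at 1279.5, 1217 and 1767 in KO and 1063, 1272, 1168 and 1533 in WT (0.17, SE 0.21). Npat, a coactivator of clustered histone gene transcription, was at 299, 325 and 272 in KO and 238, 95.1, 351 and 206 in WT (0.56, SE 0.37). Npat was lowest in WT 2, the library with the highest clustered histone sum, and its estimate was 0.21 without WT 2 and 0.27 without both WT 2 and KO 3. The 4 other genes with the smallest p were Anp32e, Asf1a, Upf1 and Sympk. Anp32e, which encodes a chaperone that removes H2A.Z, was at 766, 872 and 969 in KO and 705, 600.2, 782 and 671 in WT (0.33, SE 0.19). Asf1a, a chaperone gene for H3 and H4, had an estimate of 0.40 (SE 0.25). Upf1, which encodes a helicase needed for histone mRNA decay, had an estimate of -0.53 (SE 0.34), and Sympk, which encodes the scaffold of the cleavage complex, one of -0.40 (SE 0.29). In all 6 genes the KO and WT libraries overlapped. Without WT 2 and KO 3 the estimates were 0.01 for Slbp, 0.19 for Anp32e, 0.20 for Asf1a and -0.17 for Sympk, and without KO 2 that of Upf1 was -0.33.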

How the data were processed

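The deposited values are a normalized signal for each gene in each library, computed by the authors. Without a role or order, R 3.3.1, mm10, DESeq2, kallisto 0.44, Partek 6.6 and CASAVA 1.8 appear in the submitters' processing notes, and bcl2fastq2 2.20 demultiplexed the reads per the labels' protocols. In every library 100% of values less an offset of 1 were whole multiples of 1 step within 0.01 of a read, which gave the reads, and normalized counts are the deposited values minus that offset. SmartSeq2 reads carry no molecular identifiers, so floors cover counting error only.

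limma 3.58.1 in R 4.3.3 was fitted to log2(normalized count + 1) with a trended prior, all 7 libraries and no covariate, for the 11787 genes with a mean of at least 10, and adjusted by Benjamini-Hochberg. Values of the limma fit for Hpgd and other genes below that limit come from a fit to all 15815 genes. Fold changes are on this log2 scale, where the added 1 understates the change of low genes. No pair of libraries was alike within sampling noise (smallest chi-square per degree of freedom 12.8). Annotation and transcripts are GENCODE M21. Sums over genes have no p-value. Alternatives changed the pseudocount, the scaling, the filter or the prior, or used array weights, voom, a replicate block and left-out libraries.

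The members and lists were chosen with earlier results of these data known. Named genes were every variant gene, the 10 clustered genes of highest mean, 6 further tested clustered genes of smallest p, Slbp, Npat and 4 supply genes of smallest p, Pcna, Mcm5, Mki67, Top2a, Hpgd and Foxp3. Genes outside this rule are named for their sequence, as a sole gene of a count or after their values were seen.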

Additional observations from a re-analysis of the deposited data

Results flagged for a closer look

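In 2 results 1 of the 4 WT libraries lay far from the other 3, judged by its gap to the nearest library as a share of the whole range (Dixon's 95% limit for 4 samples). Chance puts about 1 in 20 groups past that limit, and 42 groups were looked at. Hist1h1c, the linker histone gene, was at 50.6 in WT 1, with the other WT libraries between 95.0025 and 103. Mki67 was at 124 in WT 2, with the other WT libraries between 581 and 656.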

How the results depend on the processing

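In limma and in voom, 0 histone genes passed under any alternative run. Over all genes 4 passed with array weights, 3 with the replicate block and 4 without WT 2 and KO 3, against 0 in the design as reported, and 0 with any 1 library left out. The median log2 fold change of the clustered genes was -0.051 with array weights and -0.027 without WT 2 and KO 3, and lay between -0.31 and -0.031 with 1 library left out. With 1 library left out, the log2 difference lay between -0.42 and -0.19 for the clustered sum, between -0.18 and 0.05 for the variant sum, between -0.38 and -0.13 for the clustered to variant ratio, between 0.03 and 0.20 for the S phase sum, between -0.47 and -0.34 for the clustered to S phase ratio and between 0.30 and 0.43 for the G2 and M sum. The ratio of clustered to variant genes differed by -0.41 per length.

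Of 38 named genes 17 changed sign in at least 1 alternative run. H2afy2 and Hpgd, below the limit for testing, had almost no alternative, and genes of low count could not be fitted where they fell below a limit. None of the 38 genes had passed, and the cause was not tested. Without WT 2 and KO 3 the estimate was -0.012 for H2afz, -0.043 for H2afy, 0.029 for Hist1h2ap, 0.080 for Hist2h2aa1, -0.48 for Hist4h4, 1.11 for Hist2h2aa2, 0.19 for Mcm5 and -0.076 for Foxp3. With array weights it was -0.029 for H2afy, 0.030 for Hist2h2aa1, 0.37 for Hist1h1d and 0.012 for Mcm5. With the replicate block it was 0.017 for H3f3b and 0.015 for Hist1h1c. These equal the estimates without WT 4, because WT 4 stands alone in its block and adds nothing to the estimate there. H3f3a was at 0.00099 with TMM scaling and at 0.0066 with scaling to library totals. With 1 library left out the ranges that spanned 0 were -0.085 to 0.12 for H2afz, -0.28 to 0.042 for H3f3b, -0.050 to 0.13 for H2afy, -0.20 to 0.15 for H3f3a, -0.25 to 0.25 for H1f0, -0.50 to 0.016 for H3f3c, -0.31 to 0.028 for Hist1h1c, -0.17 to 0.46 for Hist1h2bc, -0.65 to 0.085 for Hist2h2aa1, -0.073 to 1.12 for Hist2h2be, -2.73 to 0.061 for Hist2h2aa2 and -0.0087 to 0.25 for Pcna.

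Deviations of libraries with the same number had correlations of 0.01, -0.04 and 0.09 for numbers 1 to 3, against -0.20 to 0.20 over all pairs of a KO and a WT library. So few libraries cannot tell whether a number marks a shared host or day. No label says that it does, so the block is not a known pairing. A quasi-likelihood count test on the recovered reads was planned and not run. The lowest depth, in KO 3, limits the low clustered genes most.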
